A study of Homo sapiens with 4 samples.

Results

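The 32 genes described here encode subunits of the SWI/SNF chromatin remodeling complexes BAF, PBAF, and GBAF, together with 3 related SNF2 helicases. They were listed by name for their place in these complexes, with earlier results of these data known, and all 32 were present among the 18449 gene symbols of the count table. RNA was sequenced from BT-16 and CHLA-266, 2 established patient-derived cell lines of the atypical teratoid/rhabdoid tumor (AT/RT) subgroup AT/RT-MYC. Each cell line gave 1 untreated library and 1 library from treated cells, which makes 2 libraries per condition, with the lines standing in as replicates. Treated cells had received 1 µM doxorubicin and 5 µM etoposide, which act on topoisomerase II, and 1 µM vincristine, which blocks microtubule assembly, on consecutive days, and the cells that regrew over the following weeks were collected. No drug was given to the untreated cells. A library stands for 1 culture of 1 cell line, so no *p* value measures the spread between cultures of the same line. Without a term for the cell line, the *p* values rest on the spread between 2 cell lines. In fits with that term, they rest on how far the change after treatment differed between the lines.

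SWI/SNF complexes use the energy of ATP to slide or evict nucleosomes and thereby open DNA at promoters and enhancers. Each complex carries 1 of the mutually exclusive ATPases *SMARCA4* (BRG1) and *SMARCA2* (BRM), some of the core subunits, and subunits that define its form. *ARID1A* or *ARID1B* with a DPF protein mark canonical BAF, *ARID2*, *PBRM1*, *BRD7*, and *PHF10* mark PBAF, and *BRD9* with *BICRA* or *BICRAL* marks GBAF. AT/RT are embryonal tumors of the brain whose defining event is the loss of *SMARCB1* or, rarely, *SMARCA4*. Several subunits are exchanged between paralogs during development, and in neurons *ACTL6A* gives way to *ACTL6B*, *SS18* to *SS18L1*, and *PHF10* and *DPF2* to *DPF1* and *DPF3*.

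Library totals ranged from 49849258 to 75087194 counts, and treated cells gave fewer counts than untreated cells of the same line. All 10 proliferation markers were downregulated (median log2 fold change -5.18), and their summed level fell from 3974 to 118 CPM (counts relative to the library size after TMM normalization) in BT-16 and from 3932 to 106 CPM in CHLA-266. The 380 olfactory receptor genes, which these cells have no known use for, served as a measure of low-level reads. Of these, 121 and 90 had a count in untreated BT-16 and CHLA-266 cells, against 293 and 209 in treated cells, and their summed level was 7.10 and 8.37 CPM before and 94.0 and 68.8 CPM after treatment. Of the markers of AT/RT-MYC, *MYC* had 11515 or more counts in each untreated library and *HOXC9* 176 or more, while *HOXC6*, *HOXC8*, and *HOXC10* had at most 17. Over the libraries, markers of macrophages summed to 3.23 to 7.82 CPM, those of fibroblasts to 3.77 to 16.9, those of endothelium to 0.0650 to 2.42, those of AT/RT-TYR to 1.02 to 7.11, and those of AT/RT-SHH to 5.22 to 8.02. Muscle markers summed to 9.13 to 20.8 CPM, and in untreated BT-16 cells nearly all of this was *NKX2-5* (1432 counts). Of these lists, 1 macrophage, 0 fibroblast, 1 endothelial, 3 muscle, 1 AT/RT-TYR, and 1 AT/RT-SHH marker were upregulated, and 1 muscle marker and *MYC* were downregulated. Neuronal markers summed to 33.8 CPM before and 55.8 CPM after treatment in BT-16, and to 24.7 and 61.2 CPM in the CHLA-266 pair, with 3 of 7 upregulated and *STMN2* and *NEUROD1* at 0 counts in untreated CHLA-266 cells. The part of these shifts in the results below was not tested. In bulk RNA, fewer cells that express a gene and less RNA per cell cannot be told apart.

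*SMARCB1* (ENSG00000099956, hg38 chr22:23786931-23838009, plus strand), the core subunit whose loss defines AT/RT, was counted in every library. It had 1394 (untreated) and 981 (treated) counts in BT-16, against 1313 and 827 in the CHLA-266 pair. Per kilobase of its canonical transcript this came to 3.89 and 3.27 CPM for BT-16, and to 4.11 and 3.07 CPM for CHLA-266, so the treated library was the lower of each pair. These levels stood between percentile 53.9 and 55.2 of all genes in their library, and at 64.6 and 66.0 times the 95th percentile of the olfactory receptors in untreated and 6.09 and 7.45 times in treated BT-16 and CHLA-266 cells. The log2 fold change of treated against untreated cells was -0.34 (SE 0.21), which did not pass the threshold (quasi-likelihood test of edgeR, Benjamini-Hochberg adjusted *p* = 0.226 over 18066 genes), and with upper-quartile normalization it was 0.011. Counts per gene do not show which exons were read or whether the RNA encodes an intact protein. Exons of *DERL3* on the opposite strand cover 17.7% of the annotated exon bases of *SMARCB1*, and *DERL3* itself had 43 to 66 counts. Per kilobase, the range of *SMARCB1* overlapped those of *SMARCE1* (2.35 to 4.20 CPM, with uncertain counts), *BICRA* (2.19 to 3.29), *DPF1* (1.77 to 5.52), and *BCL7A* (3.94 to 10.3). *BICRAL* (2.13 to 2.91) lay below each value of *SMARCB1*. The core subunits other than *SMARCB1* and *SMARCE1* had 9.21 CPM or more per kilobase.

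**Figure D1:**
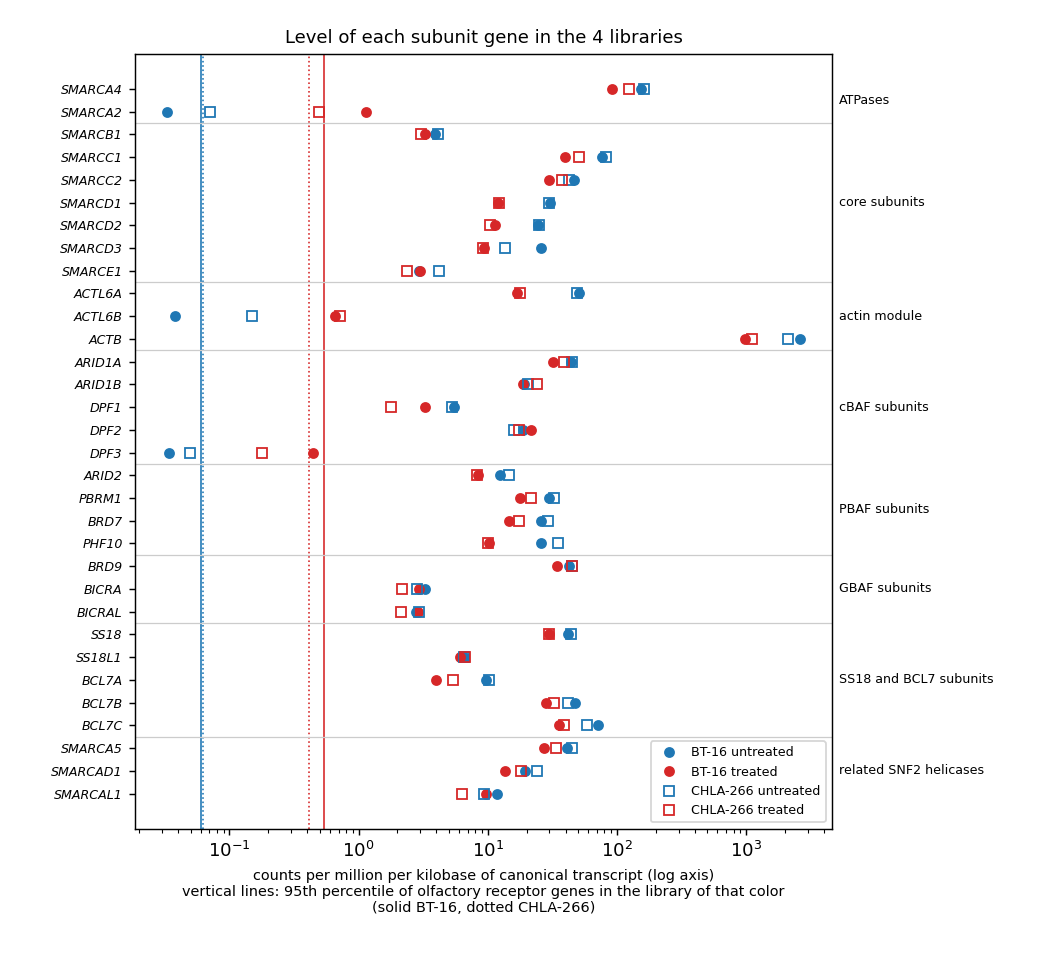
Level of the 32 genes in each of the 4 libraries, as CPM per kilobase of the canonical transcript on a log axis, grouped by role, with 1 point per library (blue untreated, red treated, circles BT-16, squares CHLA-266). Vertical lines give the 95th percentile of the olfactory receptor genes in each library, and *SMARCA2*, *ACTL6B*, and *DPF3* are the 3 genes at or near these lines.

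Levels of the 32 genes per kilobase spanned from 0.0328 CPM for *SMARCA2* in untreated BT-16 cells to 2628 CPM for *ACTB* there. *ACTB*, which encodes the beta-actin that is also part of the complexes, had 983 to 2628 CPM per kilobase and was the highest member in every library, followed by *SMARCA4* with 91.3 to 162. The scaffold subunit *SMARCC1* (40.0 to 82.5) came next in untreated cells, and its range overlapped those of *BCL7C* (35.7 to 71.4), *SMARCC2* (29.8 to 46.2), *BCL7B* (28.4 to 47.3), *ARID1A* (31.9 to 44.8), and *BRD9* (34.5 to 45.2). Per kilobase, 29 of the 32 genes stood above the 95th percentile of the olfactory receptors in all 4 libraries. The other 3 were *SMARCA2*, *ACTL6B*, and *DPF3*, and the plot of levels by library sets them apart from the rest.

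After treatment, 16 of the 32 genes were downregulated and 2 were upregulated at an adjusted *p* under 0.05 in edgeR, while 14 did not pass the threshold. Among all genes, 19.1% were downregulated and 16.1% upregulated, and among the 12162 genes with a mean of at least 1 CPM, to which 31 of the 32 belong, 28.4% were downregulated and 14.1% upregulated. The median log2 fold change was -0.51 over the 32 genes, 0.24 over all genes, and -0.20 over genes with a mean of at least 1 CPM. Both treated libraries stood below both untreated libraries for 21 of the 32 genes (32.3% of all genes) and above them for 3 (40.2% of all genes), and for 8 the conditions overlapped. With the cell line as a block, 19 members were downregulated (23.7% of all genes) and 2 upregulated (17.9%). The counts depended on the scaling, since upper-quartile normalization raised the median of all genes by 0.35 and gave 6 downregulated (10.5% of all genes) and 4 upregulated (24.1%) members. In each of the 14 fits, *ACTL6A*, *PHF10*, *SMARCD1*, *SMARCD2*, *ACTB*, and *BCL7A* were downregulated and *SMARCA2* was upregulated. Without the untreated BT-16 library 10 members were downregulated, against 12.9% of all genes (*SMARCA4*, *SMARCD3*, *DPF1*, *SS18*, *BCL7B*, and *BCL7C* did not pass), and without the untreated CHLA-266 library 9, against 14% of all genes (*SMARCA4*, *SMARCC1*, *ARID2*, *PBRM1*, *DPF1*, *SS18*, and *BCL7B* did not pass). Without the treated BT-16 library 13 members were downregulated (18.8% of all genes), as *SMARCAL1* passed and *SMARCA4*, *PBRM1*, *SS18*, and *BCL7B* did not, and *DPF3* was lost among the upregulated. Without the treated CHLA-266 library 17 were downregulated (18.3% of all genes), as *SMARCC2*, *SMARCA5*, and *SMARCAD1* passed and *DPF1* and *SS18* did not.

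**Figure D2:**
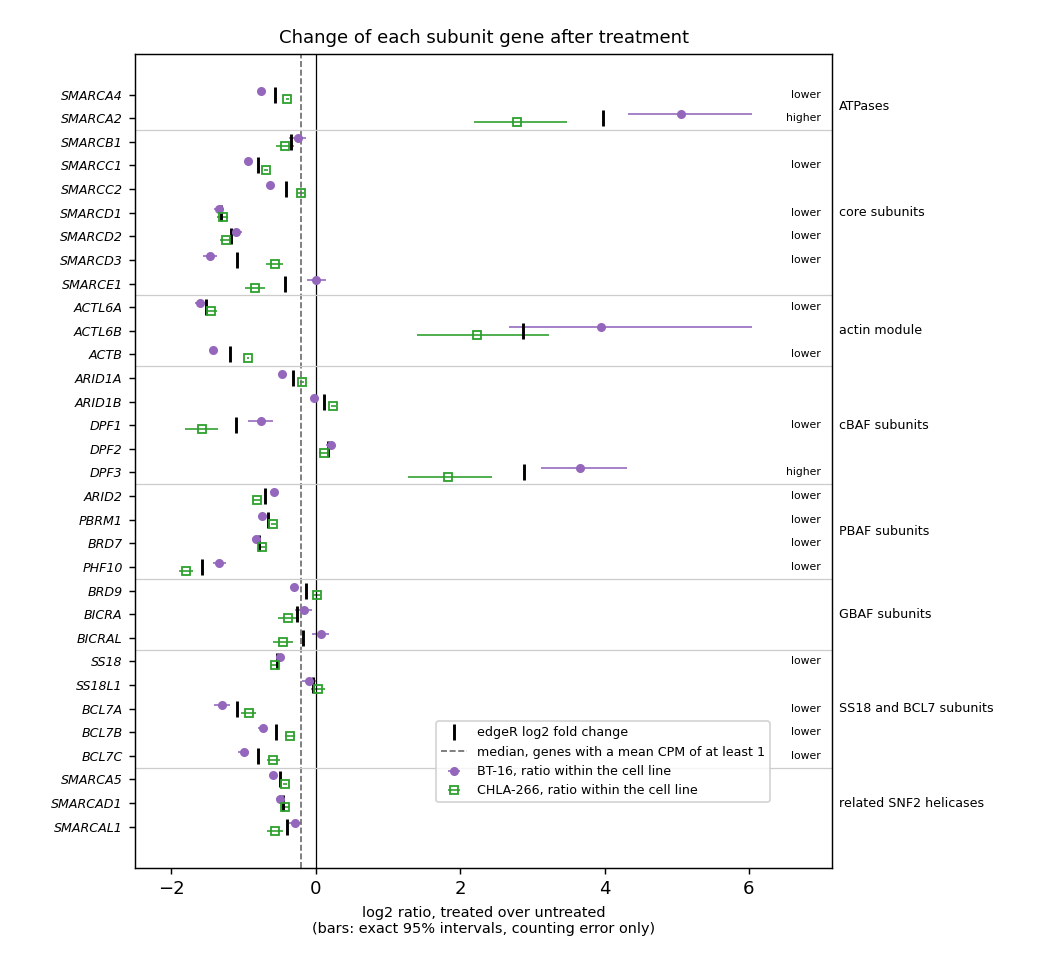
Log2 ratio of treated to untreated cells for each of the 32 genes within BT-16 (circles) and within CHLA-266 (squares), with exact 95% intervals that cover counting error only, and the edgeR log2 fold change over both cell lines (bars). The words at the right mark genes past the threshold, and 23 of the 32 genes were lower in both cell lines, against 6514 of the 18066 genes tested and 6348 of the 12162 with a mean of at least 1 CPM.

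*SMARCA2*, *ACTL6B*, and *DPF3* were the 3 genes whose treated libraries both exceeded both untreated ones, and their promoters are shown because their log2 fold changes were opposite to those of most other subunits. Each run is the 250 bases before the RefSeq start nearest to that of the canonical transcript (GRCh38.p14, read 5′ to 3′ on the strand of the gene), for *SMARCA2* at chr9:2015097-2015346 on the plus strand, for *ACTL6B* at chr7:100656449-100656698 on the minus strand, and for *DPF3* at chr14:72894102-72894351 on the minus strand. Capitals mark the CCAAT box, CCAAT or its reverse complement ATTGG.
SMARCA2: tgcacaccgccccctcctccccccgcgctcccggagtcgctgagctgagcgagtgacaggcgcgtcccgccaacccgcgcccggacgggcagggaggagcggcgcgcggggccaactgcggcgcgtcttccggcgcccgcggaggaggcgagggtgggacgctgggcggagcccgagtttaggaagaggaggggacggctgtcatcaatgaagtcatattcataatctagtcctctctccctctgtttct
ACTL6B: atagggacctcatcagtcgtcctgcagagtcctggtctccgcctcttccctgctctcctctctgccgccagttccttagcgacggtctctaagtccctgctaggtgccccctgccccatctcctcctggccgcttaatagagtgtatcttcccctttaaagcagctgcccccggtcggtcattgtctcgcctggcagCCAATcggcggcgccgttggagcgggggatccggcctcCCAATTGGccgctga
DPF3: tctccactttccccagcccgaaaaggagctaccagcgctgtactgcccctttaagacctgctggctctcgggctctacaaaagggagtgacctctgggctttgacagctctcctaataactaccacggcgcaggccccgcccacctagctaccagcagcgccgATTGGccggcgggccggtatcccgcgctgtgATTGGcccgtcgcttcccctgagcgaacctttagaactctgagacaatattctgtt
The *ACTL6B* promoter holds 3 CCAAT boxes, of which 2 overlap, the *DPF3* promoter 2, and the *SMARCA2* promoter 0.

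Promoters of 27 of the 32 genes were matched, and over both strands a CCAAT box occurs in 7 of 27 against 34.5% of the promoters of 14642 genes of the count table. The E2F motif TTCCCGCC occurs in 2 of 27 (*BRD7* and *SMARCA5*, 3.88% of all promoters), the CHR element TTTGAA of cell cycle genes in 0 of 27 (10.2%), and the GC box GGGCGG in 21 of 27 (59.7%). The median CpG count in 250 bases was 31.0 in the 12 matched promoters of downregulated members, 30.0 in the 13 of members that did not pass the threshold, and 19.0 over all promoters. *SMARCA2* had 29 CpG, *ACTL6B* 16, and *DPF3* 16. The RNA data do not show which start site was used, and a match of letters is not a bound site.

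Of the ATPases, *SMARCA4* was the abundant one in every library and fell, while *SMARCA2* rose from 13 and 25 counts. *SMARCA4* had 59447 (untreated) and 29429 (treated) counts in BT-16, against 55651 and 35718 in the CHLA-266 pair. Its log2 fold change was -0.56 (SE 0.19) with an adjusted *p* of 0.0498 in edgeR, close to the threshold, and it passed in 4 of 13 alternatives (adjusted *p* 0.0019 to 0.349). In the fit with the cell line as a block, that *p* was 0.0026. *SMARCA2* had 13 (untreated) and 378 (treated) counts in BT-16, against 25 and 148 in the CHLA-266 pair, so both treated libraries exceeded both untreated ones. The log2 fold change was 3.98 (SE 0.67; edgeR, adjusted *p* = 0.0029). Within the cell lines, the log2 ratio was 5.06 in BT-16 (exact 95% interval 4.33 to 6.04) and 2.79 in CHLA-266 (2.19 to 3.48), intervals that cover counting error only. *SMARCA2* remained a small part of the ATPase RNA. Its share of *SMARCA4* plus *SMARCA2* per kilobase went from 0.0212% to 1.23% in BT-16 and from 0.0436% to 0.400% in CHLA-266.

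Its level stood near that of the olfactory receptors. Treated cells had 1.14 CPM per kilobase of *SMARCA2* in BT-16 and 0.495 in CHLA-266, where the 95th percentile of the olfactory receptors was 0.537 and 0.411, respectively. In untreated cells, *SMARCA2* had 0.0328 and 0.0707 CPM per kilobase against 0.0602 and 0.0622. With all annotated exons in place of the canonical transcript, *SMARCA2* was under the 95th percentile in each of the 4 libraries. Of the olfactory receptors, 27 of 335 tested were upregulated and 0 downregulated in edgeR, against 16.1% and 19.1% of all genes. Their median log2 fold change was 4.16. Whether the same low-level reads contribute to the *SMARCA2* counts was not tested.

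The core subunits were lower in both cell lines except *SMARCE1*. Of these 7 genes, 4 were downregulated past the threshold, against 28.4% of genes with a mean of at least 1 CPM. *SMARCD1*, *SMARCD2*, and *SMARCD3* encode alternative BAF60 subunits that link the complexes to transcription factors. *SMARCD1* had 6849 (untreated) and 2270 (treated) counts in BT-16, against 5989 and 2070 in the CHLA-266 pair. Its log2 fold change was -1.31 (SE 0.15; edgeR, adjusted *p* = 0.00048), with nearly equal ratios of -1.34 in BT-16 and -1.29 in CHLA-266. *SMARCD2* had 4152 (untreated) and 1620 (treated) counts in BT-16, against 3753 and 1343 in the CHLA-266 pair, and its log2 fold change was -1.17 (SE 0.16; edgeR, adjusted *p* = 0.0012).

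*SMARCD3* had 3411 (untreated) and 1037 (treated) counts in BT-16, against 1604 and 913 in the CHLA-266 pair. The untreated BT-16 library was the highest of the 4, and the log2 ratio was -1.46 within BT-16 and -0.57 within CHLA-266. The log2 fold change of *SMARCD3* was -1.09 (SE 0.29; edgeR, adjusted *p* = 0.0197), and exons of *CHPF2* on the opposite strand cover 26.9% of its annotated exon bases. The scaffold subunit *SMARCC1* was downregulated (log2 fold change -0.80, edgeR, adjusted *p* = 0.0105), while its paralog *SMARCC2* had -0.41 (adjusted *p* = 0.0952, and 0.0252 with a block for the cell line). *SMARCE1* had 1050 (untreated) and 883 (treated) counts in BT-16, against 1332 and 630 in the CHLA-266 pair, with a log2 fold change of -0.43 (edgeR, adjusted *p* = 0.225). Of the 50-base windows of the *SMARCE1* transcript, 52.1% also lie in transcripts of other genes, above all of ENSG00000264058 on the same strand, so its counts are uncertain.

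All 4 subunits that define PBAF were downregulated, and the treated libraries of each stood below the untreated ones. Among genes with a mean of at least 1 CPM, 28.4% were downregulated, and differences between the forms of the complex were not tested. *PHF10*, a double PHD finger protein of progenitor cells, had 3832 (untreated) and 1273 (treated) counts in BT-16, against 4646 and 1131 in the CHLA-266 pair. The log2 fold change of *PHF10* was -1.58 (SE 0.20; edgeR, adjusted *p* = 0.00066), which left 33.4% of the untreated level. The bromodomain gene *BRD7* (-0.79), the DNA-binding subunit *ARID2* (-0.70), and the polybromo gene *PBRM1* (-0.66) had smaller log2 fold changes (edgeR, adjusted *p* 0.0085 to 0.0176). Within the cell lines, their log2 ratios lay between -0.83 and -0.57. With upper-quartile normalization, *PHF10* passed the threshold and the other 3 did not. Exons of *ADCY7* on the opposite strand cover 41.8% of the annotated exon bases of *BRD7*, and 16.5% of the 50-base windows of *BRD7* and 11.6% of those of *PHF10* also occur in transcripts of other genes, mostly pseudogenes.

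Of the 3 subunits that define GBAF, 0 passed the threshold in edgeR, against 35.2% of all genes in either direction. An unadjusted *p* under 0.05 was found for 0 of them, and neither the fit with a block for the cell line nor DESeq2 called any. The bromodomain gene *BRD9* had a log2 fold change of -0.13 (SE 0.18), *BICRA*, which bridges *BRD9* to the complex, of -0.26 (SE 0.24), and its paralog *BICRAL* of -0.17 (SE 0.24), with adjusted *p* values of 0.417 to 0.576 in edgeR. The direction of all 3 turned with upper-quartile normalization, with log2 fold changes of 0.21, 0.093, and 0.18. The ratio of *BRD9* to *BRD7*, which does not depend on the scaling between libraries, rose by 0.53 (log2, exact 95% interval 0.46 to 0.60) in BT-16 and by 0.76 (0.69 to 0.83) in CHLA-266. Per kilobase, *BRD9* made up 62.1% (untreated) and 70.3% (treated) of *BRD9* plus *BRD7* in BT-16, against 60.5% and 72.2% in the CHLA-266 pair. Within BT-16 and CHLA-266, the log2 ratio of treated to untreated cells was -0.31 and 0.013 for *BRD9*, and -0.83 and -0.75 for *BRD7*. Which gene had the larger share before treatment depended on the measure, while the rise in the share of *BRD9* did not. By counts, its share was 44.64% (untreated) and 53.77% (treated) for BT-16, against 42.92% and 56.06% for the CHLA-266 pair. Over all annotated exons, these shares were 42.07% and 51.15% for BT-16, against 40.37% and 53.46% for the CHLA-266 pair.

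In canonical BAF, the large DNA-binding subunits *ARID1A* (log2 fold change -0.32, edgeR, adjusted *p* = 0.175) and *ARID1B* (0.12, adjusted *p* = 0.606) did not pass the threshold. The direction of *ARID1A* turned with upper-quartile normalization (0.026). Their ratio moved alike in both cell lines, since *ARID1B* over *ARID1A* rose by 0.44 in BT-16 (exact 95% interval 0.39 to 0.48) and by 0.43 in CHLA-266 (0.39 to 0.48).

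The DPF genes encode readers of acetylated histones, of which *DPF2* is the general form and *DPF1* and *DPF3* are known from neurons and, for *DPF3*, muscle. *DPF2* had 4813 (untreated) and 4654 (treated) counts in BT-16, against 3678 and 3372 in the CHLA-266 pair (log2 fold change 0.17, edgeR, adjusted *p* = 0.469). *DPF1* had 876 (untreated) and 433 (treated) counts in BT-16, against 751 and 212 in the CHLA-266 pair (log2 fold change -1.11, SE 0.35, edgeR, adjusted *p* = 0.0367). It passed the threshold in 7 of 13 alternatives, and each of the fits without 1 of the libraries other than the treated BT-16 library lost it (adjusted *p* over all alternatives 0.00082 to 0.136). *DPF3* had 27 (untreated) and 292 (treated) counts in BT-16, against 35 and 106 in the CHLA-266 pair, with a log2 fold change of 2.88 (SE 0.65; edgeR, adjusted *p* = 0.0101). Without the treated BT-16 library, *DPF3* did not pass the threshold (adjusted *p* 0.00023 to 0.0787 over 13 alternatives). Per kilobase, *DPF3* stood below the 95th percentile of the olfactory receptors in all 4 libraries, at 0.0343 and 0.443 CPM for BT-16 and at 0.0498 and 0.179 for CHLA-266, and its level cannot be told apart from theirs.

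In the actin module, *ACTL6A*, the form found in dividing progenitors, fell to 34.7% of its untreated level. *ACTL6A* had 6545 (untreated) and 1809 (treated) counts in BT-16, against 5590 and 1726 in the CHLA-266 pair. The log2 fold change was -1.53 (SE 0.16; edgeR, adjusted *p* = 0.00024), and the ratios within the cell lines were -1.60 and -1.45. Its neuronal paralog *ACTL6B* had 4 (untreated) and 58 (treated) counts in BT-16, against 14 and 57 in the CHLA-266 pair, and both treated libraries exceeded both untreated ones. The log2 fold change of *ACTL6B* was 2.87 (SE 1.03), which did not pass the threshold (edgeR, adjusted *p* = 0.0591, and 0.0718 with a block for the cell line). *ACTL6B* passed in 6 of 12 alternatives, among them DESeq2 with and without the block (adjusted *p* over the alternatives 0.0248 to 0.190). Its share of *ACTL6A* plus *ACTL6B* per kilobase went from 0.0743% to 3.75% in BT-16 and from 0.304% to 3.86% in CHLA-266. Treated cells had 0.658 and 0.720 CPM of *ACTL6B* per kilobase against a 95th percentile of the olfactory receptors of 0.537 and 0.411. Over the 4 libraries *ACTL6B* was above that percentile in 3, and in 2 with all annotated exons as the length.

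*ACTB* had 328441 (untreated) and 102954 (treated) counts in BT-16, against 236451 and 104428 in the CHLA-266 pair, a log2 fold change of -1.18 (SE 0.19; edgeR, adjusted *p* = 0.0025). Of its 50-base windows, 10.9% also occur in transcripts of other genes. As beta-actin is above all a part of the cytoskeleton, its RNA does not stand for the complexes alone.

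*SS18*, a subunit of canonical BAF and GBAF, was downregulated, and its neuronal paralog *SS18L1* did not pass the threshold. *SS18* had 9727 (untreated) and 5807 (treated) counts in BT-16, against 9172 and 5219 in the CHLA-266 pair, with a log2 fold change of -0.53 (edgeR, adjusted *p* = 0.0274). It passed in 5 of 13 alternatives (adjusted *p* 0.0040 to 0.350), and was lost when any 1 of the 4 libraries was left out. *SS18L1* had 2059 (untreated) and 1617 (treated) counts in BT-16, against 1835 and 1578 in the CHLA-266 pair, with a log2 fold change of -0.032 whose sign turned with each other scaling. The ratio of *SS18L1* to *SS18* rose by 0.40 in BT-16 (exact 95% interval 0.29 to 0.50) and by 0.60 in CHLA-266 (0.49 to 0.71).

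The BCL7 proteins are small subunits shared by the 3 forms of the complex. *BCL7A* had 2481 (untreated) and 848 (treated) counts in BT-16, against 2357 and 1045 in the CHLA-266 pair, with a log2 fold change of -1.10 (SE 0.21; edgeR, adjusted *p* = 0.0058). *BCL7C* (-0.80) and *BCL7B* (-0.54) were downregulated as well (edgeR, adjusted *p* = 0.0099 and 0.0329), and these 2 calls were lost with upper-quartile normalization.

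The related helicases *SMARCA5*, the ISWI ATPase, *SMARCAD1*, which acts in the restoration of chromatin after replication, and *SMARCAL1*, which remodels stalled replication forks, had log2 fold changes of -0.50, -0.46, and -0.40. In edgeR 0 of the 3 passed the threshold (adjusted *p* 0.0558 to 0.220, with 2 at an unadjusted *p* under 0.05). Among all genes, 35.2% passed in either direction. In DESeq2 1 of them passed without and 2 with a block for the cell line, against 19.2% and 19.5% of all genes downregulated. With that block in edgeR 2 passed, *SMARCA5* (adjusted *p* = 0.0057) and *SMARCAD1* (0.0120), against 23.7% of all genes downregulated. All 3 were lower in both cell lines. This held for 6514 of the 18066 genes tested and 6348 of the 12162 with a mean of at least 1 CPM.

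**Figure D3:**
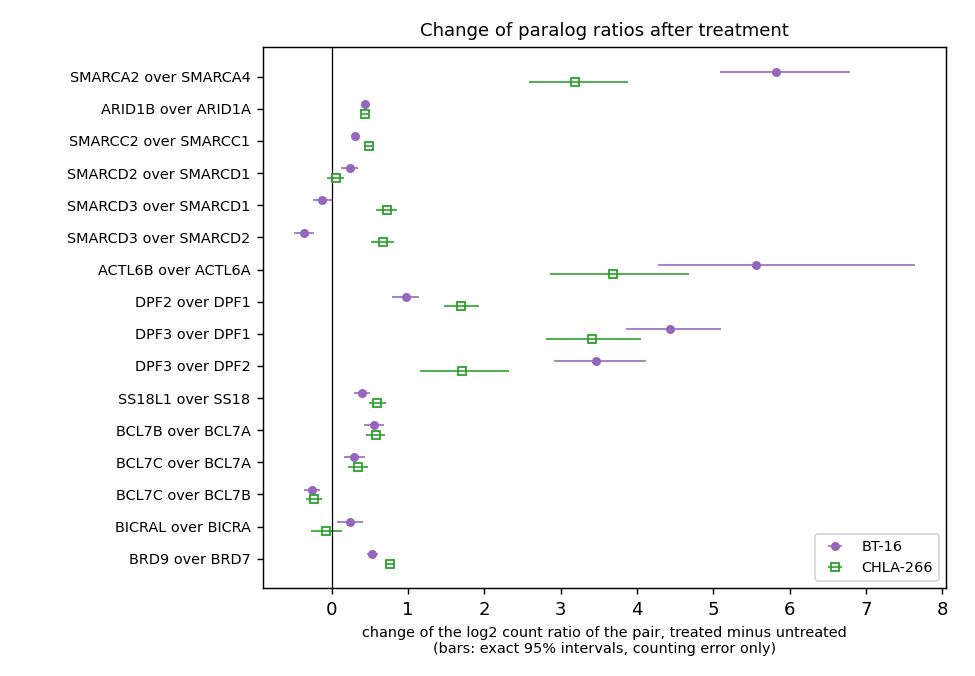
Change of the log2 count ratio between paralogs or alternative subunits after treatment, within BT-16 (circles) and CHLA-266 (squares), with exact 95% intervals that cover counting error only. In 12 of the 16 pairs, several of which share a gene, both intervals lie on the same side of 0, and no other gene pairs were compared. In BT-16 the pairs with *SMARCA2*, *ACTL6B*, and *DPF3*, genes at or near the level of the olfactory receptors, lie farthest to the right.

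Ratios between paralogs were also taken within each library, where the scaling between libraries has no part. For 12 of 16 pairs both cell lines moved the same way with intervals that did not include 0. Several pairs share a gene, and the intervals cover counting error only. Pairs with *SMARCA2*, *ACTL6B*, or *DPF3* are among them, and these genes stood at or near the level of the olfactory receptors. A ratio within a library does not remove the rise of low-level reads after treatment, and its part in these pairs was not tested. No other gene pairs were compared, so this count has no background. *DPF2* over *DPF1* rose by 0.97 in BT-16 and 1.70 in CHLA-266, *BCL7B* over *BCL7A* by 0.56 and 0.58, and *SMARCC2* over *SMARCC1* by 0.30 and 0.49. *SMARCD3* over *SMARCD1* fell by 0.12 in BT-16 (exact 95% interval -0.25 to -0.0021) and rose by 0.72 in CHLA-266 (0.58 to 0.86). Whether such ratios differ between the lines was not testable with a single pair of libraries each.

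Between the cell lines, in an additive edgeR model of cell line and treatment, 0 of 32 passed the threshold, against 2.3% of all genes, and 0 did so with DESeq2, while 3 had an unadjusted *p* under 0.05. These were *SMARCAL1* (log2 difference of CHLA-266 to BT-16 -0.47), *SMARCAD1* (0.36), and *SMARCD3* (-0.48), named after their values were seen. The log2 differences of all 32 genes ranged from -0.48 for *SMARCD3* to 0.93 for *ACTL6B*, and the smallest adjusted *p* was 0.259 in edgeR.

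Of 69 genes of other remodeler families tested, 53 had a negative log2 fold change, with a median of -0.48, and 30 were downregulated and 5 upregulated in edgeR. Among all genes, 19.1% were downregulated and 16.1% upregulated. Among genes with a mean of at least 1 CPM these shares were 28.4% and 14.1%, and 7275 of 12162 had a negative log2 fold change. Among ISWI partners, 5 of 10 were downregulated and 1 upregulated, from the histone-fold gene *POLE3* (-1.46) to *BAZ2A* (0.64). Among CHD and NuRD genes, 8 of 19 were downregulated and 3 upregulated, from *MBD3* (-1.46) to *CHD2* (0.85). In the INO80, SRCAP, and TIP60 complexes, 10 of 29 were downregulated and 0 upregulated in edgeR (16 and 1 in the fit with a block, and 1 upregulated gene at an unadjusted *p* under 0.05), with *YEATS4*, a reader of acylated histones, lowest at -1.79. Of the other SNF2-type genes, 7 of 11 were downregulated and 1 upregulated, from the recombination gene *RAD54L* (-3.51) to the repair gene *ERCC6* (0.78). The lists share their control libraries with the 32 genes, and differences between the lists were not tested.

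**Figure D4:**
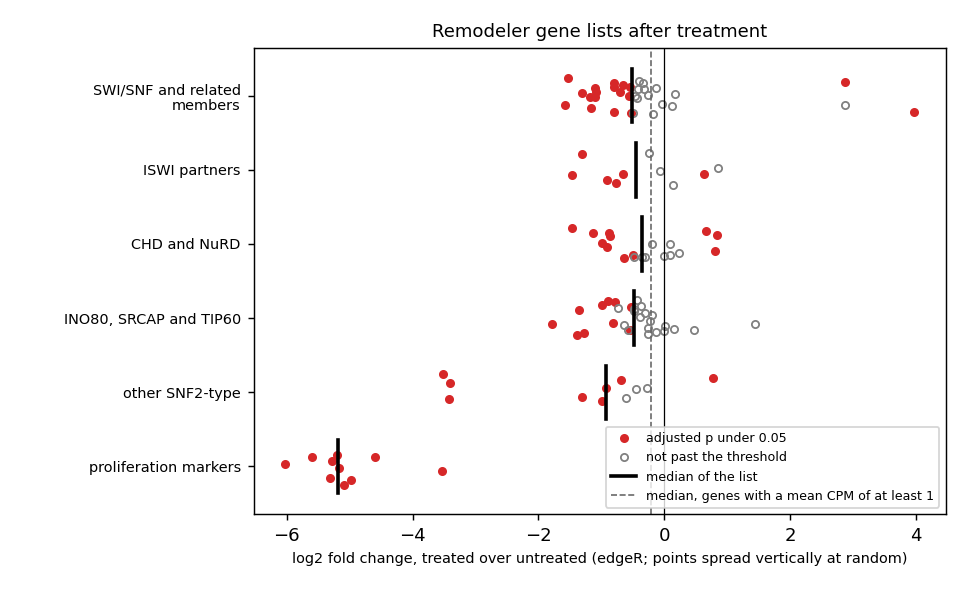
Log2 fold change of treated against untreated cells in edgeR for each gene of the SWI/SNF list, of 4 lists of other remodelers, and of the proliferation markers, with the median of each list (bar) and the median of genes with a mean of at least 1 CPM (dashed line). Filled points passed the threshold, and the medians of the 5 remodeler lists lie between -0.93 and -0.35, against -5.18 for proliferation markers.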

How the data were processed

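RNA of BT-16 and CHLA-266 cells was sequenced with paired ends from stranded libraries of amplified cDNA. The authors trimmed the reads with Skewer, aligned them to hg38 with STAR, counted them per gene, assigned symbols with biomaRt, and removed repeatedly counted genes and genes of the sex chromosomes. The authors deposited estimated counts per symbol, not normalized, in which 5 values of 2 genes had a fraction and were rounded here. They also deposited log2 values, the output of DESeq2's variance-stabilizing transformation (VST) of these counts, which served as an alternative only. The strand setting of the counting and the counting of read pairs are not given in the sources used here. Among counts of 1 to 20, 20.5% to 34.2% were odd, and if each read of a pair was counted on its own, the intervals, which cover counting error only, are too narrow.

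The 32 genes and all lists were chosen with earlier results of these data known. The tests covered 18066 of 18449 symbols, as 383 had no count at all. The comparison of conditions used edgeR 4.0.16 under R 4.3.3 with TMM and its quasi-likelihood test, no term for the cell line, and a Benjamini-Hochberg adjusted threshold of 0.05. With 2 against 2 libraries the smallest two-sided *p* of an exact permutation test is 0.333, and calls therefore depend on the spread that edgeR pools over genes. Ratios within a cell line used 0.5 added counts and exact Clopper-Pearson intervals, and ratios of paralogs Fisher's exact conditional intervals. Levels per kilobase used the Ensembl canonical transcript of GENCODE 44. All 32 genes are named. Counts in every library are given for *SMARCB1*, *SMARCA4*, *SMARCA2*, the ACTL6, SS18, and DPF genes, and each gene past the threshold with an absolute log2 fold change of at least 1, and were added for *SMARCE1*. Of other remodelers, the highest and lowest past the threshold are named.

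The libraries are paired by the cell line itself, and the deviations of the 2 libraries of a line from their condition means had a correlation of 0.3285 over 12162 genes, which are not independent replicates. On simulated counts in which 200 of 18042 genes were shifted by 2 (log2) and both lines had equal means, edgeR recovered 183 without a block and 182 with it. With the own mean of each cell line, it recovered 0 and 171 of 200 among 18037 genes, so a gene that did not pass is not shown to be unchanged. On the deposited counts the fit without a block called 35.2% of all genes, so the simulation does not give the power of that fit there. Alternatives were the block, DESeq2 1.42.0 (also with the block), 3 other scalings in edgeR (size factors, upper quartile, library totals), 2 filters (10 or more counts in all libraries, filterByExpr), limma 3.58.1 on the VST values, and each library left out. The length over all exons, halved counts, and the comparison with genes of a mean of at least 1 CPM were added after seeing the data. Promoters were taken from RefSeq (GRCh38.p14).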

Additional observations from a re-analysis of the deposited data

Results flagged for a closer look

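For 5 of the 32 genes the treated library moved one way in BT-16 and the other way in CHLA-266, a difference that was not tested, since a line has a single pair of libraries. For *ARID1B* the log2 ratio of treated to untreated cells came to -0.024 (BT-16) and 0.24 (CHLA-266), and for *BRD9* to -0.31 and 0.013. It was 0.0051 and -0.84 for *SMARCE1*, whose counts are uncertain because of the transcript it overlaps on the same strand. For *SS18L1* it was -0.094 and 0.027, and for *BICRAL* 0.071 and -0.45. In each of the 5, the exact interval of at least 1 cell line included 0.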

How the results depend on the processing

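Over 13 alternatives, the 18 called members gave 234 fold changes, of which 0 turned in direction, 189 stayed past the threshold, and 45 no longer passed it. With the cell line as a block, 2 members were upregulated and 19 downregulated (*SMARCC2*, *SMARCA5*, and *SMARCAD1* added), against 2 and 16 without it, and the block changed no other call. Upper-quartile normalization gave 4 upregulated and 6 downregulated members. The fits that left out 1 library gave 1 to 3 upregulated and 9 to 17 downregulated members, against 11.2% to 13.9% and 12.9% to 18.8% of all genes, with the lone library of a condition assumed to vary like the others. Between the cell lines, the count of 0 held in the 5 alternatives tried, and leaving out a library left no residual degree of freedom. The cause of these changes was not tested. Directions turned for 7 members that did not pass the threshold. With upper-quartile normalization the log2 fold change was 0.011 for *SMARCB1*, 0.026 for *ARID1A*, 0.21 for *BRD9*, 0.31 for *SS18L1*, 0.093 for *BICRA*, and 0.18 for *BICRAL*. With library totals it was 0.087 for *BRD9*, 0.19 for *SS18L1*, and 0.064 for *BICRAL*, and with at least 10 counts in every library 0.045, 0.15, and 0.013. For *SS18L1* it was 0.035 with DESeq2 without the block, 0.034 with it, 0.035 with size factors, 0.0019 with the filter of edgeR, and 0.030 on VST values. Over the fits without 1 library it ranged from -0.33 to 0.049 for *BRD9*, from -0.081 to 0.026 for *SS18L1*, from -0.068 to 0.30 for *ARID1B*, and from -0.41 to 0.044 for *BICRAL*. Shares by counts and over all exons differed from those per kilobase by more than counting error in 157 of the values compared. The comparison covered 23 genes in each of the 4 libraries, by both of these measures. All of these shares use the same counts with another length or none, so the lengths alone set the differences. For *SMARCA2* the shares were 1.27% and 1.04% in treated BT-16 cells, against 1.23% per kilobase. For *BCL7C* among the BCL7 genes in untreated BT-16 cells they were 34.8% and 35.4%, against 55.6% per kilobase. Halved counts moved 1 interval end of 64 intervals to the other side of 0.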

Other observations

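The protein-coding genes next to *SMARCB1* on chromosome 22 in the count table showed no common direction. Before it, *CHCHD10*, a mitochondrial protein gene, had 8663 (untreated) and 5577 (treated) counts in BT-16, against 8633 and 4898 in the CHLA-266 pair, and was downregulated (log2 fold change -0.48, edgeR, adjusted *p* = 0.0423). *MMP11* (1973, 2020, 1200, and 1641 counts in the same order), *ZNF70* (1299, 873, 981, and 608), and *C22orf15* (83, 129, 65, and 67) did not pass the threshold, and neither did *VPREB3* with 4 to 52 counts. After it, the sugar transporter gene *SLC2A11* rose (1157 to 1785 counts for BT-16, 1323 to 2304 for CHLA-266, log2 fold change 0.97, edgeR, adjusted *p* = 0.0140), while *DDTL* fell from 252 to 74 and from 343 to 45 (-2.10, adjusted *p* = 0.0125). *DERL3* had 43 to 66 counts and *GSTT2B* 0 to 32. *MIF* is listed at 13 counts in untreated BT-16 cells and at 0 in the other 3 libraries.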
